A study of Rattus norvegicus with 9 samples.

Results

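Small leucine-rich proteoglycans are secreted proteins of the extracellular matrix, built on a core of leucine-rich repeats. They bind collagen fibrils and set fibril diameter and spacing, and several also bind growth factors of the TGF-beta family. Versican is a large chondroitin sulfate proteoglycan that binds hyaluronan and is laid down in provisional matrix. In liver, such matrix comes mainly from stellate cells and portal fibroblasts, and it accumulates in fibrosis. The genes examined were decorin (Dcn), biglycan (Bgn) and asporin (Aspn), fibromodulin (Fmod), lumican (Lum) and Prelp, osteoglycin (Ogn), and versican (Vcan). They were chosen by gene symbol and are 8 of 14378 genes that the arrays measured.

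Liver RNA of 9 rats was hybridised to Affymetrix Rat Genome expression arrays, 1 array per rat. The methods describe male Sprague-Dawley rats, and the ages of the rats are not given in the sources used here. Group vehicle (replicates 3, 4 and 5) received vehicle alone. Group CCl4 (replicates 1, 2 and 3) received intraperitoneal carbon tetrachloride, a hepatocyte toxin, 2 times a week for 8 weeks. Group CCl4+Rot (replicates 4, 5 and 6) received the same CCl4 course plus intraperitoneal rottlerin, an activator of BK potassium channels. Rottlerin was given at 2.5 mg/kg, injected 2 weeks after the first CCl4 dose. How often rottlerin was injected is not given in the sources used here. The arrays read whole liver, so more cells of a type and more RNA per cell cannot be told apart. Each array is a single animal, and the p-values measure the spread between these rats.

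A probe set is a group of short oligonucleotides that reads 1 transcript or several related ones, and its signal is given on a log2 scale. Of the 8 genes, 6 were called present, that is above background by the Affymetrix detection call, on at least 3 arrays. Vcan was called present on 2 arrays, and Fmod was called present on none. Hepatocyte markers such as Alb and Ttr were called present on every array, 6 of 6 in the list. CCl4 replicate 3 stood apart from the other arrays, with 12714 probe sets called present against 15550 to 16849. Its median signal over the 9830 probe sets absent on every array was 5.64 on the log2 scale, against 4.06 to 4.56 on the other arrays. Over the 11231 probe sets present on every array, the medians of all 9 arrays lay between 9.51 and 9.58. The part of this offset in the dim signals of Vcan and Fmod was not tested.

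The changes below are differences of group means in log2 units, from 1 limma fit of all 9 arrays and 31042 probe sets. Calls required at least 1.5-fold and, after Benjamini-Hochberg adjustment over all probe sets, a p below 0.05. A robust fit, in which the spread follows the signal and outlying spreads are down-weighted, was run as an alternative. The comparisons of each group with vehicle share the vehicle arrays, and those that involve CCl4 share the CCl4 arrays, so their results are not independent.

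Mean signals of most of these genes were higher in CCl4 livers than in vehicle livers, and they were higher still in most cases in livers also given rottlerin. In the CCl4 livers, the group means of 7 of 8 genes were above vehicle, beside 61.2% of all genes. The median change was 0.85, beside 0.13 over all genes. In the CCl4+Rot livers, all 8 means were above vehicle, beside 53.8%, with a median change of 1.18, beside 0.03. Between CCl4+Rot and CCl4, 7 of 8 means were higher in CCl4+Rot, beside 43.8%, with a median change of 0.43, beside -0.05. These counts include Fmod, absent on every array, and Vcan, called present on 2. For the 6 genes present on at least 3 arrays, the medians were 0.85, 1.29 and 0.44. Over all genes so detected, they were 0.04, 0.03 and 0.01. No gene of the 8 was called by limma in any comparison, where 0.0% to 0.0209% of all genes were called. Each array's median over all probe sets was 7.81 for CCl4 replicate 3 and 6.79 to 7.01 for the others. After each array was centred on it, the median changes were 0.49 for CCl4 against vehicle and 0.67 for CCl4+Rot against CCl4. For the latter, the median was 0.68 without CCl4 replicate 2, 0.27 without CCl4 replicate 3 and 0.11 with array weights, an alternative that gave CCl4 replicate 3 the weight 0.193.

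**Figure D1:**
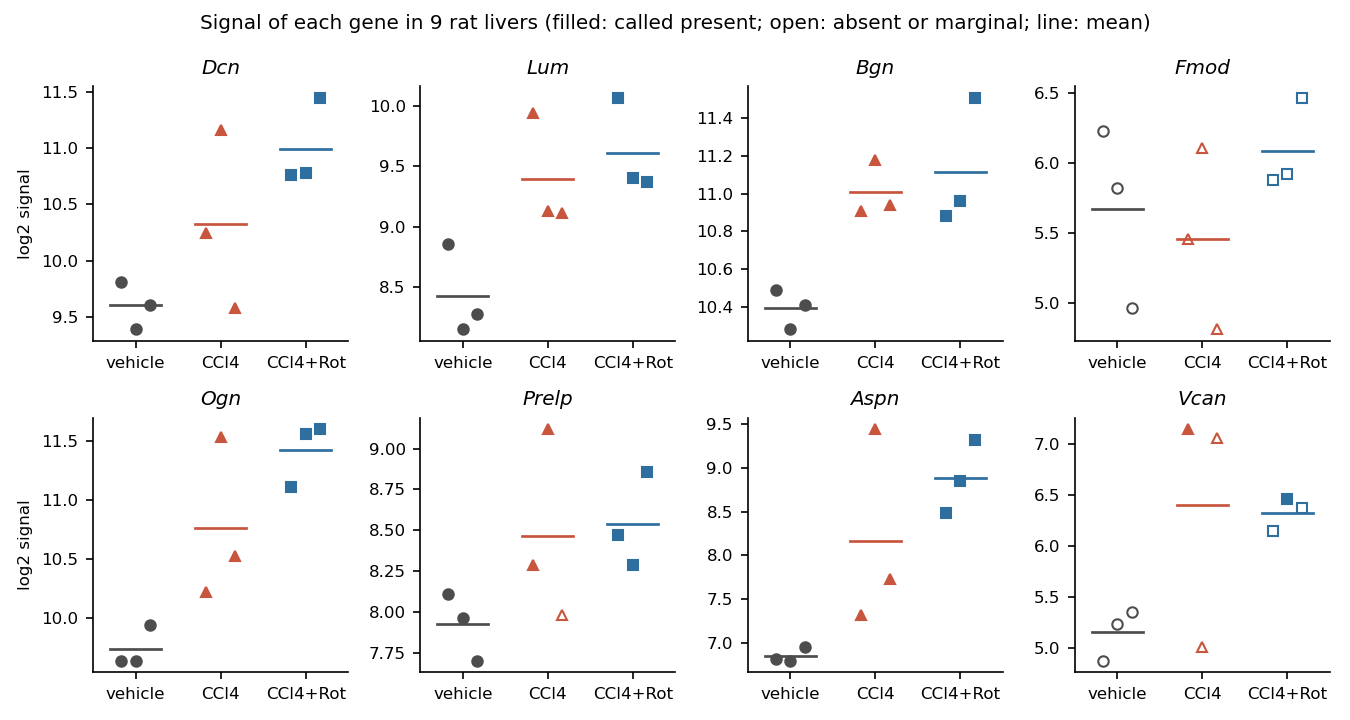
Log2 signal (y axis) of each of the 8 genes in every liver by group (x axis), with replicates side by side, group means as lines, filled symbols for arrays called present and open symbols for the others. Every CCl4+Rot liver lies above every vehicle liver in 7 of 8 genes, as in 15.2% of all genes, and Fmod was called present on no array.

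Decorin and biglycan are class I proteoglycans that carry chondroitin or dermatan sulfate chains, and decorin binds collagen and TGF-beta. Dcn (probe set 1370956_at, which the table lists at chr7:38786571-38823742 of a build not given in the sources used here) had signals of 9.81, 9.39 and 9.61 in vehicle replicates 3, 4 and 5. It had signals of 10.25, 11.16 and 9.58 in CCl4 replicates 1, 2 and 3. In CCl4+Rot replicates 4, 5 and 6, it had 10.76, 10.78 and 11.45. CCl4 replicate 3 lay within the vehicle range, while all 3 CCl4+Rot livers were above it. The change from vehicle was 0.73 in CCl4 (SE 0.403, limma adjusted p = 0.494) and 1.40 in CCl4+Rot, which is 2.63-fold (SE 0.403, adjusted p = 0.383 in limma and 0.0866 in the robust fit).

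Bgn (1367594_at) had signals of 10.49, 10.28 and 10.41 in vehicle, 10.91, 11.18 and 10.94 in CCl4, and 10.88, 10.96 and 11.51 in CCl4+Rot. All 6 CCl4-given livers lay above all 3 vehicle livers, with a range within each group of at most 0.63. Its change over both CCl4-given groups was 0.67, or 1.59-fold (SE 0.182). That change missed the limma threshold and passed in the robust fit (adjusted p = 0.0364). The table lists Bgn on chromosome 1, whereas RefSeq places it on chromosome X in GRCr8.

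Lumican binds collagen and carries keratan sulfate in some tissues. Lum (1367749_at, chr7:38863780-38868210 in the table) lies next to Dcn. Its signals were 8.86, 8.15 and 8.28 in vehicle, 9.94, 9.13 and 9.11 in CCl4, and 10.07, 9.40 and 9.37 in CCl4+Rot. Here too, every CCl4-given liver lay above every vehicle liver. The change over both groups was 1.07, or 2.10-fold (SE 0.286, adjusted p = 0.239 in limma and 0.0362 in the robust fit). Unlike the other 5 detected genes, Lum was highest in CCl4 replicate 1 and CCl4+Rot replicate 4. RefSeq gives 1 start for Lum, and its 250 bases upstream (GRCr8, chr7:34245456-34245705, plus strand) are shown because all CCl4-given livers exceeded vehicle. Capitals mark the SMAD binding letters CAGAC on either strand.
Lum: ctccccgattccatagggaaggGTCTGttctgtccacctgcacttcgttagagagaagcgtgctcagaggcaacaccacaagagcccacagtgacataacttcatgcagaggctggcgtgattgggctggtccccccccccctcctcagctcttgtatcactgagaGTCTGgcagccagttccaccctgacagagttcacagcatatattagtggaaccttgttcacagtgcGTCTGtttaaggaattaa
The window holds 3 matches. CAGAC occurs on either strand in 42.9% of 33469 windows of 250 bases, and a match is a description of the letters.

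Fibromodulin shares its class with lumican and Prelp and binds collagen. Fmod (1367700_at) was called absent on all 9 arrays, with signals between 4.81 and 6.47, and no fold is given. Prelp anchors basement membranes to connective tissue. Prelp (1387886_at) had signals of 8.11, 7.96 and 7.70 in vehicle, 8.29, 9.12 and 7.98 in CCl4, and 8.47, 8.29 and 8.86 in CCl4+Rot. It was called absent in CCl4 replicate 3 and present on the other 8 arrays. Vehicle and CCl4 overlapped, and vehicle and CCl4+Rot did not. The change in CCl4+Rot was 0.62 (SE 0.316, 95% interval -0.12 to 1.36), which missed both thresholds.

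Osteoglycin and asporin are encoded on the same stretch of chromosome 17, with osteomodulin (Omd) between them. Osteoglycin binds collagen, and asporin, which lacks glycosaminoglycan chains, binds collagen and TGF-beta. Aspn (1381504_at, chr17:17554968-17555363 in the table) had signals of 6.82, 6.80 and 6.96 in vehicle. CCl4 livers had 7.32, 9.44 and 7.73, and CCl4+Rot livers had 8.48, 8.85 and 9.32. The groups with CCl4 did not overlap vehicle, and CCl4 replicate 2 stood above all 3 CCl4+Rot livers. The change in CCl4+Rot was 2.02, or 4.06-fold, the largest of the 6 genes called present on at least 3 arrays (SE 0.524, adjusted p = 0.319 in limma and 0.0559 in the robust fit). In the comparison of both groups with vehicle, it was 1.66 (robust adjusted p = 0.0427).

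All 4 probe sets of Ogn also name LOC100910855, so the 2 loci cannot be told apart. The table places 1383263_at at chr17:16660657-16669010 and the others from 17506165 on the same chromosome. The brightest, 1376749_at, read 9.64, 9.64 and 9.94 in vehicle, 10.22, 11.53 and 10.53 in CCl4, and 11.11, 11.56 and 11.60 in CCl4+Rot. Vehicle overlapped neither group, while CCl4 replicate 2 lay among the CCl4+Rot livers. Its change was 1.02 in CCl4 (SE 0.343, limma adjusted p = 0.319) and 1.68 in CCl4+Rot, or 3.21-fold (adjusted p = 0.213 in limma and 0.0133 in the robust fit). None of the 8 genes passed in the robust fit of CCl4+Rot against vehicle without vehicle replicate 4. The same held without CCl4+Rot replicate 5 or CCl4+Rot replicate 6, so the call of Ogn was lost in each case. The second set, 1383263_at, read 9.07, 8.79 and 9.09 in vehicle, 9.62, 10.64 and 9.59 in CCl4, and 10.11, 10.88 and 10.82 in CCl4+Rot, with the same order of groups. The other 3 probe sets gave 0.34 to 0.97 in CCl4 and 1.32 to 1.62 in CCl4+Rot, all in the same direction. However, CCl4 overlapped vehicle in 1385248_a_at and in 1390450_a_at. The former read 9.25, 8.04 and 8.39 in vehicle and 8.59, 9.95 and 8.15 in CCl4. In the robust fit, 1383263_at also passed in CCl4+Rot (adjusted p = 0.0156), and 1385248_a_at and 1390450_a_at did not (0.305 and 0.0651).

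Omd, a related proteoglycan that lies between these genes, had signals of 9.71, 9.66 and 10.31 in vehicle, 9.55, 9.47 and 9.54 in CCl4, and 9.35, 9.79 and 9.82 in CCl4+Rot. All 3 CCl4 livers lay below all 3 vehicle livers, as in 8.53% of all genes, with a change of -0.37 (limma adjusted p = 0.541). The CCl4+Rot livers overlapped both groups. The change of Omd over both CCl4-given groups was -0.30 (SE 0.201, limma adjusted p = 0.644), beside 1.35 for Ogn and 1.66 for Aspn. Whether Omd differed from its neighbours was not tested. The sequences below are the 250 bases upstream of RefSeq starts in GRCr8, all on the minus strand, at chr17:15258996-15259245 (Ogn), chr17:15274871-15275120 (Omd) and chr17:15310470-15310719 (Aspn). They let the neighbours be compared, and capitals mark the TATA box letters TATAAA, the SMAD letters CAGAC, the AP-1 letters TGANTCA and the TEAD letters GGAATG on either strand.
Ogn: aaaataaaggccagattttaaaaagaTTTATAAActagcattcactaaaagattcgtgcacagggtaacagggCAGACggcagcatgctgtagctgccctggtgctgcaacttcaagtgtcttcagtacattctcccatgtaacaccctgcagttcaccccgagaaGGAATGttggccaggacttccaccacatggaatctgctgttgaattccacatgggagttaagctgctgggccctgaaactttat
Omd: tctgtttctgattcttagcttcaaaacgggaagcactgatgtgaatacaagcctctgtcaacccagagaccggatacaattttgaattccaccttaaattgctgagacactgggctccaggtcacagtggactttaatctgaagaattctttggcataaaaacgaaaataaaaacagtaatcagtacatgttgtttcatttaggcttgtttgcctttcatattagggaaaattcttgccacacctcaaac
Aspn: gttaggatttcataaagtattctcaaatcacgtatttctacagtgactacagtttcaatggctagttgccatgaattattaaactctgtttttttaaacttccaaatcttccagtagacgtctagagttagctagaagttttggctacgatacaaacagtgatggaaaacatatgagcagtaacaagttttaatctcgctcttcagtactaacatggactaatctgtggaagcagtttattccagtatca
Ogn holds 2 overlapping TATAAA matches, 1 CAGAC and 1 GGAATG, and Omd and Aspn hold none of the 4 motifs. Of all 33469 windows, 12.9% hold the TATA box letters, 42.9% the SMAD letters, 6.34% the AP-1 letters and 12.1% the TEAD letters. No match says only that these letters are not in this window.

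**Figure D2:**
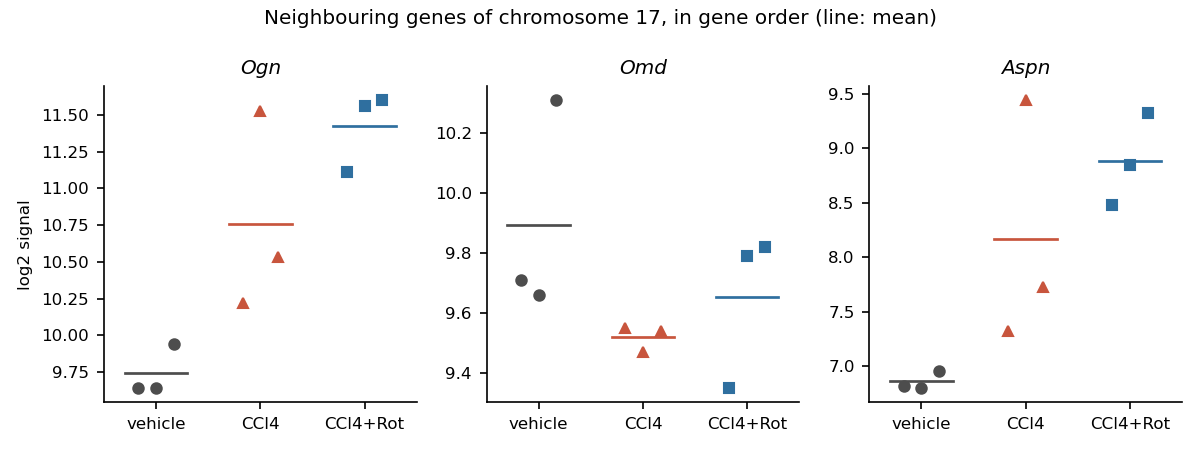
Log2 signals (y axis) of Ogn, Omd and Aspn, neighbouring genes of chromosome 17, in every liver by group (x axis), with group means as lines and all arrays called present. Ogn, by its brightest probe set, and Aspn are higher in all CCl4-given livers than in vehicle, as are 6.59% of all genes. Omd in the 3 CCl4 livers, at 9.47 to 9.55, lies below vehicle, as do 8.53% of all genes, and overlaps CCl4+Rot.

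Versican was near the limit of detection. The brightest probe set of Vcan, 1388054_a_at, read 4.87, 5.23 and 5.35 in vehicle, 7.15, 5.01 and 7.06 in CCl4, and 6.15, 6.46 and 6.37 in CCl4+Rot. It was called present in CCl4 replicate 1 and CCl4+Rot replicate 5, and in no vehicle liver. CCl4 replicate 2 lay below 2 of the 3 vehicle livers, and the CCl4+Rot livers lay above all of them. A floor was set on each vehicle array, the dimmest present signal of that array (2.9 to 3.49). All 3 vehicle signals of this probe set lay above it, so the floor changed nothing. The difference of means from vehicle was 2.40-fold in CCl4 (limma adjusted p = 0.404) and 2.26-fold in CCl4+Rot (limma adjusted p = 0.638). With most arrays called absent, these are estimates and not lower bounds. The CCl4 value depended on the arrays used. Its log2 change of 1.26 was 0.43 with array weights, 0.77 after quantile normalization, 0.89 without CCl4 replicate 1 and 1.96 without CCl4 replicate 2. The second, 1388142_at, read 4.72, 0.72 and 4.60 in vehicle, 7.09, 6.30 and 6.79 in CCl4, and 5.72, 5.41 and 6.44 in CCl4+Rot, with all CCl4-given livers above vehicle. With the floor in place of 0.72, the estimates were 5.64-fold in CCl4 and 3.07-fold in CCl4+Rot, with 1 array of each of these groups called present. The other 3 were called absent on all 9 arrays, so no fold is given for them. Among these, 1371232_a_at and 1388265_x_at passed in the robust fit of both groups against vehicle (adjusted p = 0.0435 and 0.0427), and the table lists 1371233_at on the strand opposite to the others.

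**Figure D3:**
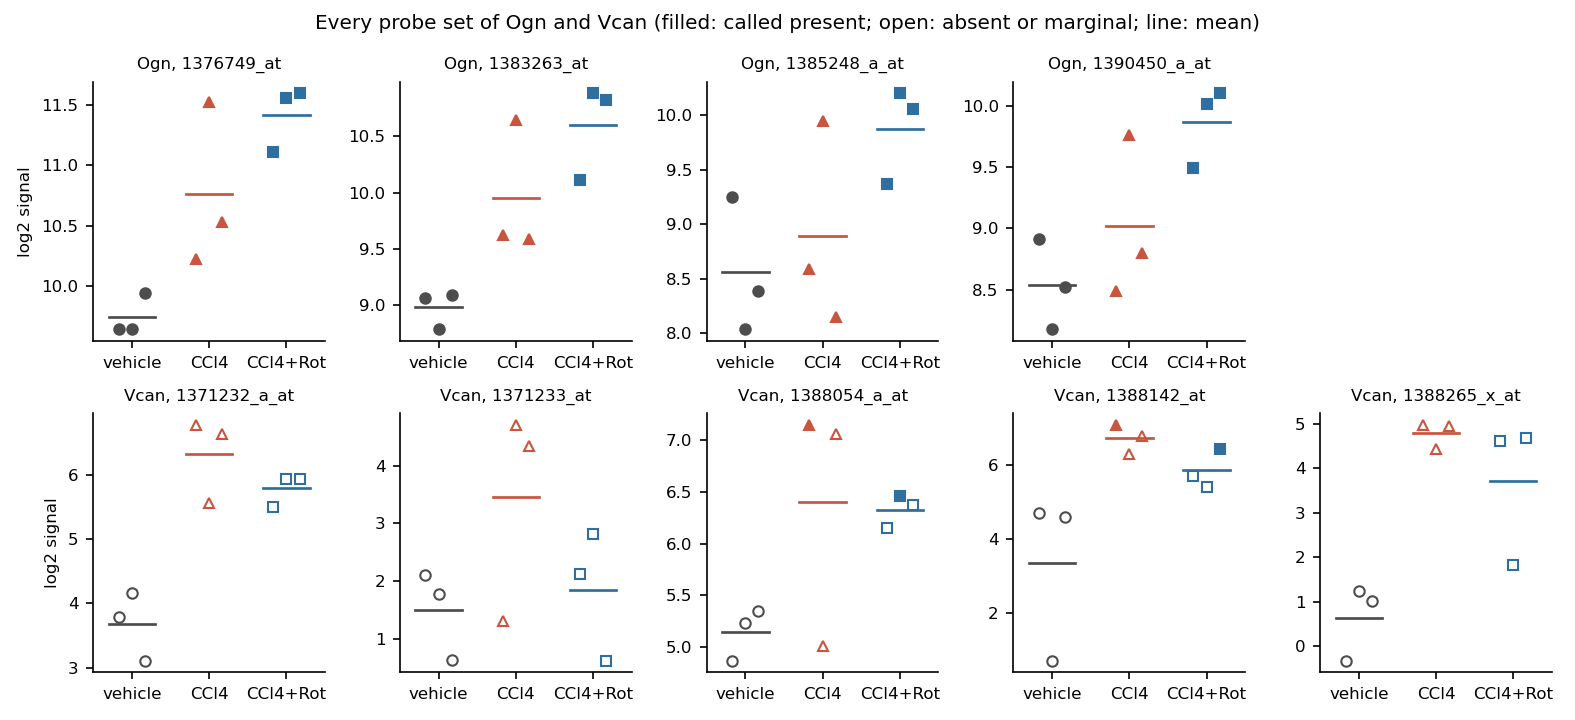
Log2 signals (y axis) of the 4 Ogn and 5 Vcan probe sets in every liver by group (x axis), with group means as lines and open symbols where the array was not called present. The Ogn sets agree in direction, and only 2 of the Vcan sets were called present on any array.

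**Figure D4:**
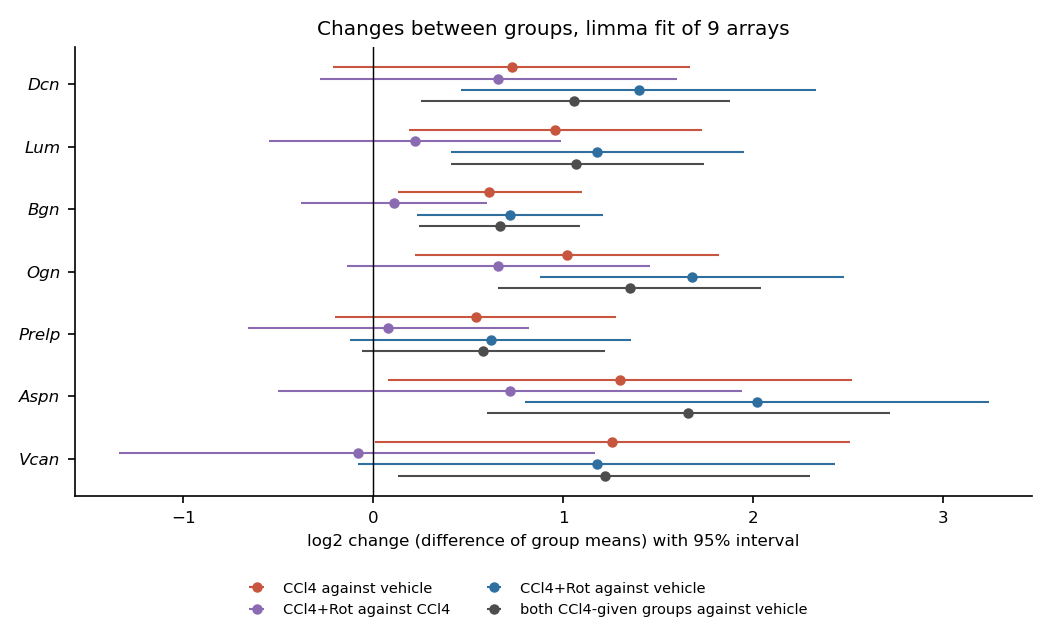
Log2 change with its 95% interval (x axis) for the 7 genes with a present call (y axis) in 4 comparisons. Intervals for CCl4+Rot against CCl4 all include 0, and those for CCl4+Rot against vehicle lie above 0 for Dcn, Lum, Bgn, Ogn and Aspn.

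Adding rottlerin to CCl4 gave no difference that passed the test in any of these genes. Changes from CCl4 to CCl4+Rot were 0.66 for Dcn (95% interval -0.28 to 1.60), 0.66 for Ogn (-0.14 to 1.46) and 0.72 for Aspn (-0.50 to 1.94). They were smaller for Lum at 0.22 (-0.55 to 0.99), Bgn at 0.11 (-0.38 to 0.60), Prelp at 0.08 (-0.66 to 0.82) and Vcan at -0.08 (-1.34 to 1.17). The other Vcan set with a present call, 1388142_at, gave -0.87 (-3.21 to 1.46), the 3 sets called absent gave -1.60 to -0.53, and the mean of the 5 sets gave -0.83. With array weights, the changes were 0.069 for Dcn, 0.22 for Ogn and -0.054 for Aspn. The limma adjusted p-values of Dcn, Lum and Ogn were 0.765, 0.878 and 0.764. Intervals of this width do not show that the groups were alike. None of the 8 genes had every CCl4+Rot liver above every CCl4 liver, beside 5.57% of all genes, and none had them below, beside 5.6%. In 5 of the 6 detected genes, all but Bgn, the CCl4 livers had the widest range, and Aspn spanned 2.12 among them, beside 0.17 in vehicle and 0.85 in CCl4+Rot. Replicate 2 was the highest CCl4 liver in 5 of the 6 detected genes. Without it, Dcn, Fmod (absent on every array), Ogn, Prelp and Aspn had every CCl4+Rot liver above the remaining CCl4 livers, as did 12.3% of all genes. Vcan had them below, as did 11.65%. Separation of genes that are highest in the array left out follows in part from leaving it out, so these shares are not a like comparison. Without CCl4 replicate 1, 1 of the 8 genes was wholly above CCl4, Lum, beside 10.17% of all genes. Without CCl4 replicate 3, none was, beside 12.32%.

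The counts over the 8 genes are set beside those over all 14378 genes. For CCl4 against vehicle, limma called 0 of 8 and 0.0% of all genes, and the robust fit called 0 of 8 as higher, beside 1.09%. At an unadjusted p below 0.05, 5 of 8 were higher, beside 9.49%, and 4 of 8 had every CCl4 liver above every vehicle liver, beside 12.5%. For CCl4+Rot against vehicle, limma called 0 of 8, beside 0.0209%, and the robust fit 1 of 8, Ogn, beside 1.07%. Here 5 of 8 were higher at an unadjusted p below 0.05, beside 7.46%, and 7 of 8 were wholly above vehicle, beside 15.2%.

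For both CCl4-given groups against vehicle, limma called 0 of 8, beside 0.0139%, and the robust fit called Lum, Bgn, Ogn and Aspn, 4 of 8, beside 2.32%. It called none of the 8 without vehicle replicate 4 or 5, only Ogn without CCl4+Rot replicate 5 or 6, Lum and Ogn without vehicle replicate 3, and Bgn and Ogn without CCl4+Rot replicate 4. At an unadjusted p below 0.05, 6 of 8 were higher, beside 9.64%, and 4 of 8 were wholly above vehicle, beside 6.59%. For CCl4+Rot against CCl4, limma called 0 of 8, beside 0.0%, and the robust fit 0 of 8, beside 0.00696%. No gene of the 8 was higher at an unadjusted p below 0.05, beside 2.1%, or wholly above CCl4, beside 5.57%. After each array was centred on its median, 0 of 8 were wholly above vehicle in CCl4 and in both groups together, and 7 of 8 were in CCl4+Rot. The shares of all genes were then 4.99%, 2.23% and 9.88%.

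Genes whose pattern over the 9 arrays was most like the mean of the 6 detected genes were Mmp2 (Pearson r = 0.987), Itga8 (0.986), Dpp7 (0.985), Prnp (0.984) and Armcx1 (0.984). The likeness was searched over 9806 genes, and the arrays share the treatment groups. Each gene's own likeness to the mean of the other 5 was 0.948 for Dcn, 0.937 for Ogn and Aspn, 0.908 for Bgn, 0.862 for Prelp and 0.581 for Lum.

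Of 16 collagens and fibre proteins that these proteoglycans bind, limma called 0 in any comparison. In both CCl4-given groups, 13 were higher than in vehicle at an unadjusted p below 0.05, beside 9.64% of all genes, and 11 passed in the robust fit, beside 2.32%, with a median change of 1.43. Col1a1, the main chain of type I collagen, changed by 2.52 (SE 0.313, robust adjusted p = 7.80e-04), Col6a1 by 1.43 and Col6a2 by 1.33. From CCl4 to CCl4+Rot, 1 of 16 was higher at an unadjusted p below 0.05, Col6a2 (0.86, limma adjusted p = 0.608). Of 14 proteases of these proteins and their cofactors, 3 passed in the robust fit: Mmp12, the macrophage metalloelastase, by 3.16, Mmp2 by 1.52 and Pcolce, an enhancer of procollagen processing, by 1.24. Their list had a median change of 0.92.

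Of 18 growth factors and receptors, 1 passed in the robust fit, Tgfb3 (1.54), and the median change was 0.37. In this fit of both CCl4-given groups against vehicle, 2.32% of all genes passed as higher. Single genes in lists of this size cannot be weighed against that share. P2rx7, a receptor bound by biglycan, changed by -1.07 from CCl4 to CCl4+Rot (SE 0.203, limma adjusted p = 0.548). Of 13 hyaluronan-related genes, 1 passed, the hyaluronan receptor Cd44 (1.14), and the median was 0.46. Of 19 genes that build glycosaminoglycan chains, 1 passed as higher in the robust fit, Chpf, a chondroitin polymerising factor called absent on all 9 arrays. In this list, 1 passed as lower, Papss2, an enzyme that makes the sulfate donor (named after its values were seen). No share of all genes is given for lower calls. The median of this list was 0.03. Of 10 other small leucine-rich proteins, 5 were measured and 0 passed, with a median of 0.37. All genes had a median of 0.08.

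**Figure D5:**
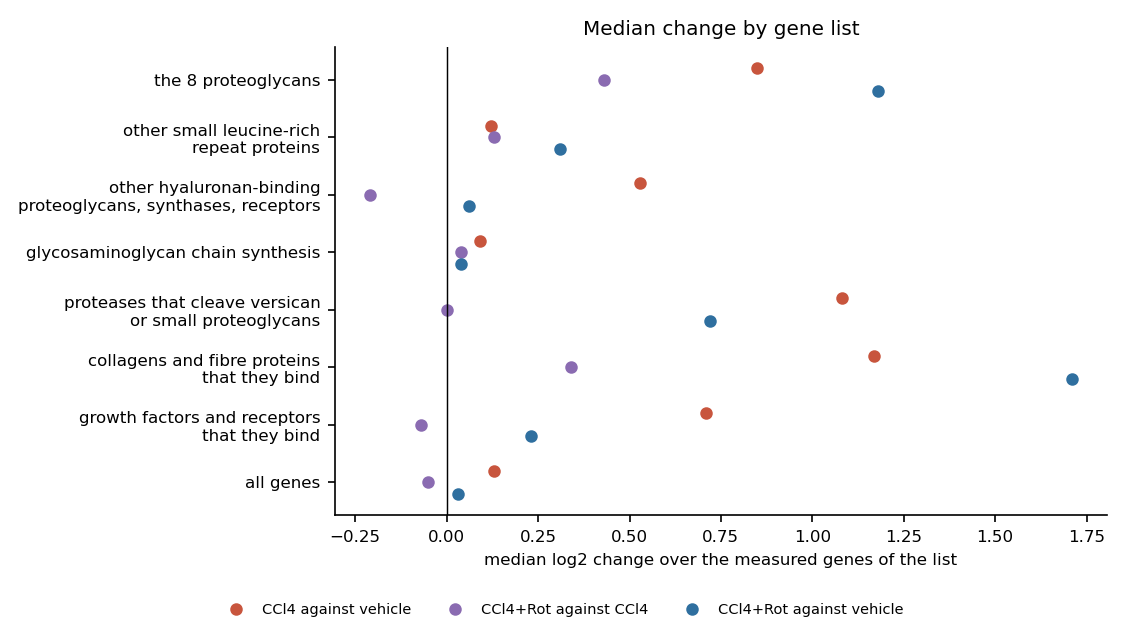
Median log2 change (x axis) of the measured genes of each list (y axis) in 3 comparisons, with the 8 proteoglycans and all genes for reference. Collagens and fibre proteins lie at 1.17 in CCl4 and 1.71 in CCl4+Rot, and glycosaminoglycan synthesis lies at 0.09 or below.

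Summed markers of some cell types differed between groups, and those of others overlapped. The summed linear signal of 7 myofibroblast markers was 2017 to 2557 in vehicle, 3020 to 4012 in CCl4 and 3636 to 4002 in CCl4+Rot. Timp1 had the highest CCl4 mean of the 7 (10.08 on the log2 scale, beside 8.48 in vehicle), and the sum without it was not computed. In both groups together, Timp1 (1.38) and Pdgfrb (1.5) passed in the robust fit, 2 of the 7, beside 2.32% of all genes called higher. Acta2, the defining actin, changed by 0.64 (robust adjusted p = 0.504) and Tagln, another smooth muscle protein, by 0.19. Cnn1, a smooth muscle calponin called present on 2 arrays, went the other way, at -1.32 (SE 0.376, limma adjusted p = 0.264), with all CCl4-given livers below vehicle.

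Portal fibroblast markers summed to 12837 to 14494 in vehicle, 10385 to 13411 in CCl4 and 9021 to 12831 in CCl4+Rot, the last wholly below vehicle. Dpt, with a change of -0.33 (SE 0.179, limma adjusted p = 0.559), made up most of this sum. Without it, the other 4 summed to 130 to 163, 348 to 586 and 189 to 391. Pi16 passed in the robust fit (2.89), 1 of the 5, beside 2.32% of all genes called higher. It was called present on 3 arrays, none of them vehicle, so its vehicle level was not measured. Thy1 and Gli1 were present on no array.

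Macrophage markers summed to 8845 to 12324 in vehicle, 14351 to 19065 in CCl4 and 15478 to 18890 in CCl4+Rot. Gpnmb (3.21) and Cd68 (0.77) passed in the robust fit, 2 of the 5, beside 2.32% of all genes called higher. Without Gpnmb, the sums were 8204 to 11013, 7672 to 10884 and 11507 to 12939, so that CCl4 and vehicle overlapped. Cholangiocyte markers summed to 912 to 1066, 2606 to 5402 and 1268 to 2432. Spp1, which macrophages also make, changed by 3.95 and passed in the robust fit, 1 of the 5, beside 2.32% of all genes called higher. It was called present on 6 arrays, none of them vehicle, so its vehicle level was not measured. Krt19 (0.11) and Epcam (0.33) did not pass, and Krt7 was present on no array. Without Spp1, the sums were 836 to 1005, 994 to 1649 and 991 to 1058, and both CCl4-given groups overlapped vehicle. Mast cell markers summed to 369 to 481, 547 to 1295 and 856 to 1453. Cpa3 (1.58) and Cma1 (3.70) passed in the robust fit, 2 of the 5, beside the same 2.32%. Cma1 was called present on 2 arrays. Its vehicle mean of 2.12 lay below the dimmest present signals of the vehicle arrays (2.9 to 3.49), so its change is not a measured fold. Kit and Tpsb2 were called present on no array, and Tpsb2 enters these sums with a vehicle mean of 7.48 on the log2 scale.

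Hepatocyte markers overlapped between groups, at 149343 to 165877 in vehicle, 109264 to 170124 in CCl4 and 155735 to 166653 in CCl4+Rot. Endothelial markers overlapped too, at 8866 to 10015, 6726 to 9455 and 9189 to 10072. Overlap was also seen for markers of quiescent stellate cells, at 7445 to 10868, 8672 to 11243 and 9110 to 13904, and of mesothelial cells, at 1692 to 2086, 887 to 2384 and 1522 to 1890. T and NK cell markers summed to 243 to 392, 260 to 912 and 342 to 575. The part of these cell types in the results was not tested.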

How the data were processed

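Total RNA of frozen rat liver was converted to biotin-labelled cRNA for 9 arrays, 1 per rat, 3 rats per group. Per array, the authors deposited log2 signals of 31099 probe sets, each with a call of presence, and the submitters' processing notes name MAS5 and affy. Versions and the genome build are not given in the sources used here. All columns were mapped to samples. No further normalization was applied, and 57 control probe sets were left out. The number of arrays limits the precision.

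One model of 3 group means, without covariates, was fitted to 31042 probe sets (limma 3.58.1, R 4.3.3), and Benjamini-Hochberg adjustment covered all of them. An exact permutation test of 3 rats against 3 could reach a two-sided p of 0.1 at best. Each gene was read by its brightest probe set naming that gene alone, and Ogn, which has none, by its brightest shared one. Named genes were the 8 genes with all their probe sets and, per list, the 3 with the smallest p for both CCl4-given groups against vehicle, the 2 for CCl4+Rot against CCl4, and the 5 of most similar pattern. Members and lists were chosen with earlier results of these data known.

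Alternatives were quantile normalization, median centring, filters on dim probe sets, fits of the compared groups only, a robust fit with a trend (statmod 1.5.0), array weights, the methods' t-test, no fold threshold, a replicate block, other probe sets and each array left out. The robust fit with an array left out or with the detection filter, and the median change with array weights, the block or the mean of the probe sets, were added after seeing the data. The fits were tested on simulated data. Sequences are from RefSeq (GRCr8), which had upstream entries for Lum, Fmod, Ogn, Aspn, Vcan and Omd.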

Additional observations from a re-analysis of the deposited data

How the results depend on the processing

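The median change of the 8 genes kept its direction with quantile normalization, centring, the dim filter, array weights, the block, the mean of the probe sets and each array left out. It ran from 0.49 to 1.02 in CCl4 against vehicle, 0.11 to 0.68 in CCl4+Rot against CCl4, 1.07 to 1.29 in CCl4+Rot against vehicle and 0.83 to 1.12 in both groups. Limma called 0 of 8 in each comparison, also with quantile normalization, median centring, both filters, no fold threshold and the methods' t-test after adjustment. With the robust fit, 1 was called in CCl4+Rot against vehicle and 4 in both CCl4-given groups against vehicle, and with array weights 1 was called in the latter. The methods' t-test without adjustment called 1 in CCl4 against vehicle, 7 in CCl4+Rot against vehicle and 6 in both groups. The share of all genes was not counted for this t-test, so these counts cannot be weighed. In limma, 9.49%, 7.46% and 9.64% of all genes were higher at an unadjusted p below 0.05 in these comparisons. With 1 array left out, the robust fit called 0 to 1 in CCl4 against vehicle, 0 to 3 in CCl4+Rot against vehicle and 0 to 4 in both groups against vehicle. It called 0 in CCl4+Rot against vehicle without vehicle replicate 4, CCl4+Rot replicate 5 or CCl4+Rot replicate 6, and 0 in both groups without vehicle replicate 4 or 5.

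Genes with non-overlapping groups went from 4 to 0 after median centring, in CCl4 and in both groups. The shares of all genes wholly above vehicle went from 12.5% to 4.99% and from 6.59% to 2.23%. Centring lowers every signal of CCl4 replicate 3, whose median was 7.81, relative to the other arrays, at 6.79 to 7.01. Its part in these counts was not tested. For CCl4+Rot against CCl4, such genes went from 0 to 1 with the mean of the probe sets, for which no share of all genes is given. They went from 0 to at most 6 as arrays were left out, the 6 without CCl4 replicate 2. Of these 6, 5 were higher in CCl4+Rot, Fmod included, beside 12.3% of all genes, and 1, Vcan, was lower, beside 11.65%. Single genes changed sign in that comparison, Aspn included. With array weights, which gave CCl4 replicate 3 the weight 0.193, Bgn was -0.036, Prelp -0.38, Aspn -0.054 and Vcan 0.75, while Dcn was 0.069 and Ogn 0.22. Vcan was 0.32 after quantile normalization and 0.16 after centring. With 1 array left out, it ran from -0.007 to 0.49 for Lum, -0.089 to 0.23 for Bgn, -0.16 to 0.41 for Prelp and -0.78 to 0.29 for Vcan. Fmod, absent on every array, ran from -0.57 to 0.11 in CCl4 and from -0.25 to 0.38 in both groups with 1 array left out. It turned to 0.19 with array weights in CCl4 and to -0.18 and -0.13 by quantile normalization and centring in both groups. The cause was not tested.

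Whether the replicate numbers pair the rats is not stated. Deviations from the group mean of same-numbered arrays correlated at -0.0896, -0.00466 and -0.0125, too few pairs to decide it. With the number as a replicate block, Dcn changed by 1.41 in CCl4+Rot against vehicle and no call changed.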
